A study of Mus musculus with 16 samples.

Results

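The comparison described here is the effect of the Myh6-Cre genotype in hearts of mice put through a protocol for HFpEF (heart failure with preserved ejection fraction) without succinate. Its members are 8 of the 16 bulk RNA-seq samples of the series, chosen by their labels: 4 hearts labelled Gpr91fl/fl (floxed hearts) and 4 labelled Myh6Cre Gpr91fl/fl (Cre hearts). Both groups carried the floxed Gpr91 alleles, and both had the 2-hit HFpEF protocol for 12 weeks: a high-fat diet, and L-NAME, which blocks nitric oxide synthesis. The groups differed in their labels only by the Cre transgene, which the Myh6 promoter drives in cardiomyocytes, so the other cell types of the heart are expected to keep the receptor gene. No group carried Cre without the floxed alleles, so an effect of Cre itself and an effect of losing the receptor cannot be told apart. The remaining 8 samples, the same genotypes given succinate, entered as a second pair of groups. Whether the 4 samples of each group were different animals is not stated; the p-values therefore cover only how much these samples vary. Of 24371 genes in the deposited count table, 14607 passed a filter on low counts and were tested.

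Gpr91, now named Sucnr1, is a G protein-coupled receptor on the cell surface that senses succinate, an intermediate of the tricarboxylic acid (TCA) cycle that leaves stressed cells. Heart and skeletal muscle use related but separate genes for the same tasks: the heart pumps calcium back into its store with the product of Atp2a2 and releases it through Ryr2, while fast skeletal muscle uses Atp2a1 and Ryr1. Troponin I, the subunit that holds the thin filament off until calcium arrives, is made from Tnni3 in the adult heart, from Tnni1 in the fetal heart and slow skeletal muscle, and from Tnni2 in fast skeletal muscle.

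The 8 libraries held 28493115 to 34357187 counts, and mitochondrially encoded genes took 23.5% to 27.7% of them. Between 18537 and 19130 genes had at least 1 count in Cre hearts and between 18067 and 18245 in floxed hearts, ranges that did not overlap. Markers of ventricular cardiomyocytes were abundant in every heart (Myh6 at 389527 to 589428 counts), as the label heart implies. On the first 2 principal components of the 8 libraries, which held 22.6% and 18.3% of the variance, the genotypes overlapped on the first, where replicate 4 of the floxed hearts and replicate 1 of the Cre hearts lay apart from the rest of their groups. On the second, all 4 floxed hearts lay above 0 and all 4 Cre hearts below it. Values are CPM, counts scaled to a common library size with TMM factors, unless another unit is named.

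The floxed gene itself was measured first. Sucnr1 had 0, 4, 1 and 1 counts in floxed replicates 1 to 4 and 2, 6, 21 and 3 counts in Cre replicates 1 to 4. The Cre hearts were thus not the lower group, and the 21 counts of replicate 3 made up most of their sum. Scaled by library totals, the means were 0.0487 ± 0.0541 and 0.253 ± 0.28 CPM (SD, n = 4 each), a difference of 0.204 CPM with p = 0.143 in an exact permutation test, two-sided (the smallest p that 4 against 4 allows is 0.0286). Leaving out replicate 3 of the Cre hearts brought the difference to 0.067 CPM. A floor of 3 counts corresponded to 0.0873 to 0.105 CPM, which covers counting error only, and the gene stayed near it in most hearts. Reads from exons outside the deleted stretch, which the labels do not locate, would not check the deletion. A deletion confined to cardiomyocytes could not be checked at this depth, and the genotype is that of the labels throughout.

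Few genes separated the genotypes, and most of those that did were higher in Cre hearts. With edgeR's quasi-likelihood test and Benjamini-Hochberg adjustment over all tested genes, 16 passed 0.05 (0.11% of those tested): 13 were higher in Cre hearts (0.089%) and 3 were lower (0.0205%). Atp2a1, a calcium pump gene of fast muscle fibres, and Cyp2b10, a drug-metabolising cytochrome P450, led the list. Tnni1, Ryr1 and Hamp2 are among the higher genes that met the count filter through their values in Cre hearts, which favours positive values. In all 16 the 4 Cre values and the 4 floxed values did not overlap, which held for 4.85% of all tested genes (2.53% higher, 2.33% lower). The 16 were chosen by p from these same values, so their lack of overlap follows largely from the choice and adds no support. DESeq2 called 0.616% and limma voom 0.157% of the genes it tested. Of the 16, 11 differed at least 2-fold (0.0753%), and 1278 genes (8.75%) had an unadjusted p under 0.05.

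**Figure D1:**
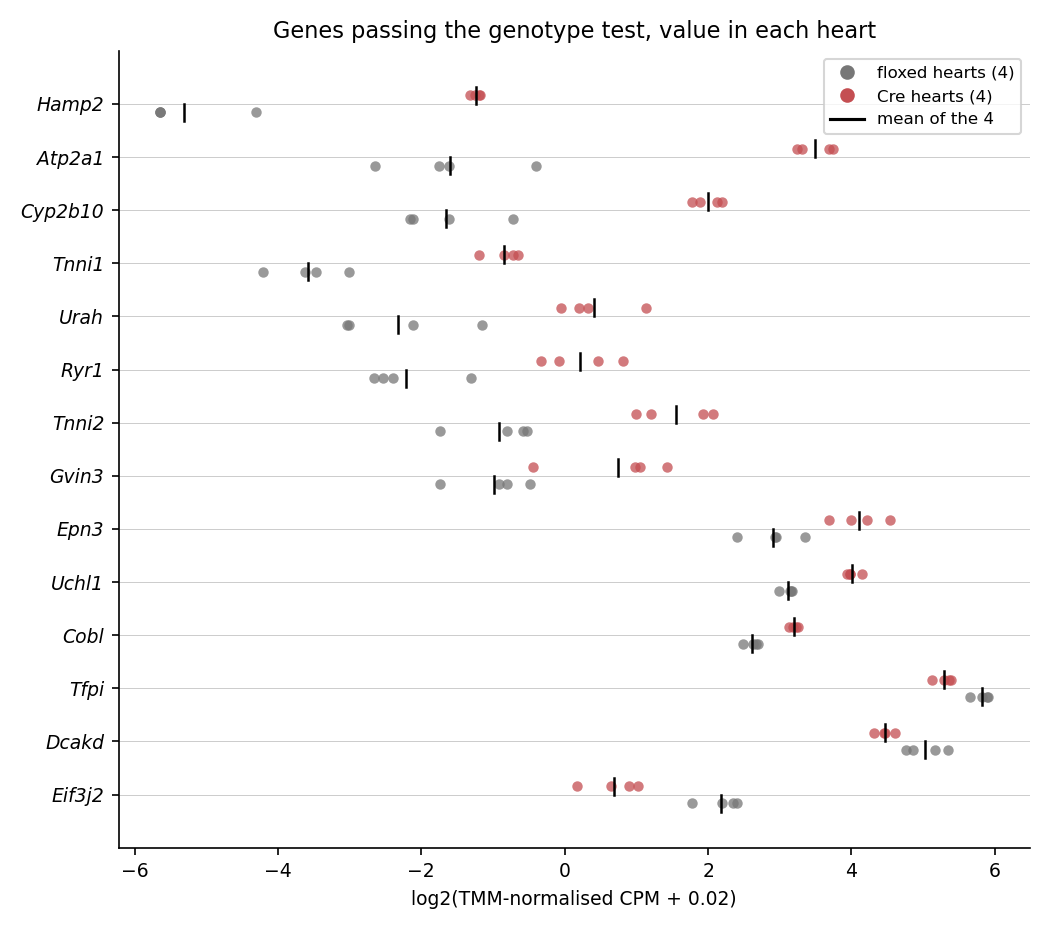
Level of 14 of the 16 genes that passed in each of the 4 floxed hearts (grey) and 4 Cre hearts (red), as log2 of normalised CPM plus 0.02, with a bar at the mean of each group. The 2 colours do not overlap for any of the 14 genes, and the 3 genes at the bottom are the lower ones in Cre hearts.

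The largest well-measured difference was in calcium handling. Atp2a1 stood at 0.14, 0.736, 0.307 and 0.277 CPM in floxed replicates 1 to 4 and at 13.3, 12.8, 9.43 and 9.85 CPM in Cre replicates 1 to 4. The lowest Cre heart was at 9.43 CPM, and no floxed heart reached 1 CPM. The fitted difference was 30-fold (log2 4.91 ± 0.26, SE; adjusted p = 2.77e-09, edgeR). Of the gene's 50-base stretches in the GENCODE vM21 transcripts, 18% also occur in other genes, nearly all in the neighbouring Rabep2, and 0.115% in the related pump gene Atp2a3. Per length, Atp2a1 remained a minor pump transcript, at 3.39 ± 0.691 FPKM (fragments scaled by gene length and library size; SD, n = 4) in Cre hearts, where the cardiac pump gene Atp2a2 was at 1455 ± 142 FPKM. Atp2a2 itself was at 1474 ± 229 FPKM in floxed hearts and did not pass (log2 -0.04 ± 0.13).

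Ryr1, the calcium release channel of skeletal muscle, moved the same way at a far lower level. Its counts were 11, 5, 5 and 4 in floxed hearts and 51, 29, 55 and 24 in Cre hearts. All 4 Cre hearts exceeded all 4 floxed hearts, with floxed replicate 1 the highest of its group. The gene rose by 2.49 ± 0.41 on the log2 scale (adjusted p = 0.0147, edgeR). Ryr2, the cardiac channel, was at 41.6 ± 10.4 FPKM in floxed and 47.4 ± 5.26 FPKM in Cre hearts, against 0.0138 ± 0.00752 and 0.0799 ± 0.0294 FPKM for Ryr1. Cacna1s, the voltage sensor that couples to Ryr1 in skeletal muscle, was at 17.3 ± 3.59 CPM in floxed and 11.6 ± 2.23 CPM in Cre hearts and did not pass (log2 -0.58 ± 0.19, adjusted p = 0.394).

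Both skeletal troponin I genes rose. Tnni2, the fast form, was at 0.281, 0.675, 0.648 and 0.554 CPM in floxed hearts and at 3.79, 4.16, 2.28 and 1.98 CPM in Cre hearts. Replicates 1 and 2 of the Cre hearts were the higher pair, and the lowest Cre heart was still well above the highest floxed heart. Tnni2 rose by 2.49 ± 0.35 (log2, SE; adjusted p = 0.00462, edgeR). Tnni1, the fetal and slow form, had 2, 2, 1 and 3 counts in floxed hearts and 22, 13, 17 and 19 in Cre hearts. It rose by 2.93 ± 0.47 (adjusted p = 0.0127, edgeR), with the floxed group at or under the floor of 3 counts in each heart. Tnni3, the adult cardiac form, was at 2048 ± 338 FPKM in floxed and 1676 ± 214 FPKM in Cre hearts and did not pass (log2 -0.31 ± 0.15), while Tnni2 and Tnni1 were at 4.33 ± 1.59 and 0.209 ± 0.0394 FPKM in Cre hearts.

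Because Atp2a1, Ryr1 and Tnni1 rose together, the 250 bases before their annotated starts are given here, from RefSeq on GRCm38.p6 (Tnni1 by the first of its listed starts). Capitals mark the E-box, CANNTG, the sequence that myogenic factors of the MyoD family bind, searched on both strands. Atp2a1 (chr7:126463074-126463323, minus strand) and Ryr1 (chr7:29125152-29125401, minus strand) lie on chromosome 7, and Tnni1 (chr1:135799171-135799420, plus strand) on chromosome 1.
Atp2a1: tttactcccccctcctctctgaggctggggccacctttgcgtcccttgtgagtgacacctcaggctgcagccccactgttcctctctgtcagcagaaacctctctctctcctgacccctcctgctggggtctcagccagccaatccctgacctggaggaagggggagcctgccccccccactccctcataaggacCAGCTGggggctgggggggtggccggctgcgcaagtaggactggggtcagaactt
Ryr1: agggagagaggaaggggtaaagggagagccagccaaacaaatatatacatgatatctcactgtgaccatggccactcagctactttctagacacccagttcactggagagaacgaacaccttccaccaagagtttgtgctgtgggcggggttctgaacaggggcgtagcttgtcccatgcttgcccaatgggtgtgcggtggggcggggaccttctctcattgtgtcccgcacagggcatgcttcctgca
Tnni1: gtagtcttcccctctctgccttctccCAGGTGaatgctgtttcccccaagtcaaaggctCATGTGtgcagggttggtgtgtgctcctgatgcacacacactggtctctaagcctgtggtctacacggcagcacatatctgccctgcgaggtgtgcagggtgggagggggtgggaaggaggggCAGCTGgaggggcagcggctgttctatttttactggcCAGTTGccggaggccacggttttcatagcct
The window of Atp2a1 holds 1 E-box, that of Ryr1 holds 0 and that of Tnni1 holds 4. Of 27025 such windows, 66% hold at least 1, and of the 11 genes among the 16 that had a window, 7 do. The MEF2 motif occurred in 0 of those 11 and in 0.518% of all windows, and TATAAA in 1 of 11 and in 13% of all. The letters in these windows describe the promoters and say nothing of which factor was bound.

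Most tested skeletal muscle genes had higher values in Cre hearts, although only some of them passed. Of 13 tested genes of fast and slow skeletal muscle, a list that names genes earlier results had already shown, 4 rose (Atp2a1, Tnni2, Tnni1 and Ryr1), 0 fell and 9 did not pass. The median log2 difference of the 13 was 1, with 12 of 13 positive, against a median of 0.00 and 7377 positive values among 14607 tested genes. The 4 genes that passed enter both figures. Tnni1 and Ryr1 met the count filter through their values in Cre hearts, which favours positive values, so the figures are a description only. Casq1, the calcium buffer of the skeletal store, was at 2.77, 8.04, 3.21 and 4.44 CPM in floxed and 9.53, 18.1, 7.21 and 18.6 CPM in Cre hearts, groups that overlapped (log2 1.52 ± 0.32, adjusted p = 0.102). Acta1, skeletal alpha-actin, which the stressed heart also makes, was at 488, 292, 344 and 606 CPM in floxed and 1051, 1408, 398 and 611 CPM in Cre hearts. Replicates 1 and 2 of the Cre hearts were the high ones, the groups overlapped, and the gene did not pass (log2 1 ± 0.33, adjusted p = 0.377).

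Markers of skeletal muscle fibres ranged from a few counts to well expressed. Of the 10 fibre markers in the table, 5 were tested and 5 were positive, with 1 past the threshold (Tnni2). All 5 are also on the list of fast and slow skeletal muscle, so they repeat values given above. Myh1 and Myh2, the fast myosins, had at most 3 counts in any heart, Tnnc2 at most 9, Pvalb at most 8 and Actn3 at most 7. Mylpf, the fast regulatory light chain, had 21 to 31 counts in floxed and 22 to 55 in Cre hearts. Tnnt3, fast troponin T, had 12, 8, 10 and 6 counts in floxed and 62, 43, 24 and 10 in Cre hearts (log2 1.76 ± 0.42, adjusted p = 0.177), and Mybpc2, fast myosin-binding protein C, was at 20.7 ± 2.61 and 28.1 ± 6.30 CPM. Acta1, also a fibre marker, had 9528 to 17485 counts in floxed and 12578 to 44001 in Cre hearts. Tnnt3 and Mybpc2 were highest in replicates 1 and 2 of the Cre hearts, as were Tnni2 and Acta1. In bulk samples, more cells of a type and more RNA per cell cannot be told apart. The regulators of the muscle programme gave no common direction: of 17 tested myogenic and muscle transcription factors 0 passed, 8 were positive and the median was -0.01. Tbx15, a T-box factor of fast muscle fibres, was at 0.640 ± 0.132 CPM in floxed and 2.18 ± 1.13 CPM in Cre hearts (log2 1.76 ± 0.40, adjusted p = 0.133).

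Uchl1, a ubiquitin hydrolase abundant in neurons and raised in stressed cardiomyocytes, rose with little spread. It stood at 8.98, 7.94, 8.87 and 8.80 CPM in floxed and 17.7, 15.7, 15.8 and 15.3 CPM in Cre hearts (log2 0.90 ± 0.12, adjusted p = 0.00233, edgeR). All Cre hearts were above 15 CPM and all floxed hearts under 9 CPM. Of its 50-base stretches 12.6% are shared with the antisense gene Uchl1os. Without a stated strand setting, reads of the 2 cannot be told apart. Its relatives Uchl3 (log2 0.04 ± 0.10) and Uchl5 (log2 0.20 ± 0.11) did not pass. Other markers of neurons and Schwann cells gave no common level: of 7 tested, 5 were positive, and Uchl1 alone passed.

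Cyp2b10 and 3 further genes known mainly from the liver or from host defence rose from levels near the floor. Cyp2b10 had 6, 10, 6 and 17 counts in floxed and 138, 135, 144 and 105 in Cre hearts, at 0.328 ± 0.180 and 3.99 ± 0.537 CPM. The 4 Cre hearts lay close together, and the rise of 12.1-fold (log2 3.59 ± 0.27) had an adjusted p of 5.45e-07 (edgeR). Its close relatives were almost silent: Cyp2b13 had 4 counts in 1 Cre heart and 0 in the others, and Cyp2b19 had 1 count in all 8 hearts. Of the 50-base stretches of Cyp2b10, 8.7% occur in other genes. Of 23 tested genes of xenobiotic metabolism, which include Cyp2b10, 1 rose and 0 fell, with 17 positive and a median of 0.13. Of the liver cell markers, albumin (Alb) and Apoa1 had at most 5 counts in any heart, while Cyp2e1 had 1 to 3 counts in floxed and 4 to 27 in Cre hearts; their part in the rise of Cyp2b10 was not tested.

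Hamp2, one of the 2 mouse genes for the iron hormone hepcidin, had 0, 1, 0 and 0 counts in floxed and 15, 13, 12 and 13 in Cre hearts. With 1 count against 53, the ratio of normalised counts was 49.1, with a 95% counting interval of 8.44 to 1976. The gene passed (adjusted p = 0.0107, edgeR), and its level in the Cre hearts was even, at 0.404 ± 0.0187 CPM. Its relative Hamp, which shares 11.2% of the 50-base stretches of Hamp2, had at most 6 counts in a heart. Urah, an enzyme of urate breakdown, had 6, 14, 3 and 3 counts in floxed and 46, 68, 30 and 35 in Cre hearts and rose by 2.65 ± 0.43 (log2; adjusted p = 0.0136).

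Gvin3, a very large interferon-inducible GTPase gene, was at 0.281, 0.552, 0.512 and 0.693 CPM in floxed and at 1.95, 2.05, 2.66 and 0.713 CPM in Cre hearts. Cre replicate 4 was barely above the highest floxed heart, and the rise of 1.85 ± 0.35 (log2) passed narrowly (adjusted p = 0.0461). Its relatives Gvin1 and Gvin2 did not pass (log2 0.37 ± 0.25 and 0.21 ± 0.24), and 17.5% of its 50-base stretches occur in other genes, so reads among them are uncertain.

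A pair of cytoskeletal and membrane genes rose from moderate levels. Epn3, an epsin that bends membrane in endocytosis, was at 7.61, 10.2, 5.26 and 7.73 CPM in floxed and 12.8, 15.9, 18.5 and 23.2 CPM in Cre hearts (2.27-fold; log2 1.19 ± 0.21, adjusted p = 0.0279). Cobl, an actin nucleator, was at 6.31, 6.44, 5.6 and 6.17 CPM in floxed and 9.37, 9.09, 9.49 and 8.69 CPM in Cre hearts (1.49-fold; log2 0.58 ± 0.10, adjusted p = 0.0209). The genotypes did not overlap for either gene, and neither shared any 50-base stretch with another gene. The ubiquitous epsins Epn1 and Epn2 did not pass (log2 -0.11 ± 0.07 and -0.11 ± 0.08), nor did Cobll1, a relative of Cobl (log2 -0.06 ± 0.13).

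Only 3 genes fell by this test. Tfpi, the endothelial inhibitor of tissue factor that restrains clotting, was at 60.1, 59.2, 56.4 and 50.5 CPM in floxed and 34.8, 41.0, 39.2 and 42.0 CPM in Cre hearts. Every Cre heart was under every floxed heart, and the gene fell by 0.53 on the log2 scale (SE 0.09, adjusted p = 0.0136, edgeR). It was the only one of 16 tested coagulation genes to pass; the endothelial markers beside it had a median of -0.11 over 9 genes, with 1 positive and 0 past the threshold. Their part in the fall of Tfpi was not tested.

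Dcakd, a kinase-domain gene related to coenzyme A synthesis, was at 35.9, 40.6, 29.0 and 27.1 CPM in floxed and 22.1, 19.9, 24.3 and 21.9 CPM in Cre hearts. The lowest floxed heart was above the highest Cre heart, and the change was -0.59 ± 0.11 (log2; adjusted p = 0.0393).

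Eif3j2, one of 2 mouse genes for a subunit of the initiation factor eIF3, was at 3.40, 5.28, 5.05 and 4.54 CPM in floxed and 1.55, 2.02, 1.84 and 1.10 CPM in Cre hearts. It changed by -1.49 ± 0.26 (2.81-fold lower; adjusted p = 0.0192, edgeR). Its twin Eif3j1 holds 90.8% of its 50-base stretches, so its count depends on how reads were assigned between the 2. Eif3j1 was at 39.6, 34.0, 42.2 and 39.3 CPM in floxed and 43.8, 46.2, 48.8 and 43.3 CPM in Cre hearts, higher in every Cre heart but not past the threshold (log2 0.23 ± 0.08, adjusted p = 0.394). Of 29 tested translation initiation genes 1 passed, 13 were positive and the median was -0.02.

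**Figure D2:**
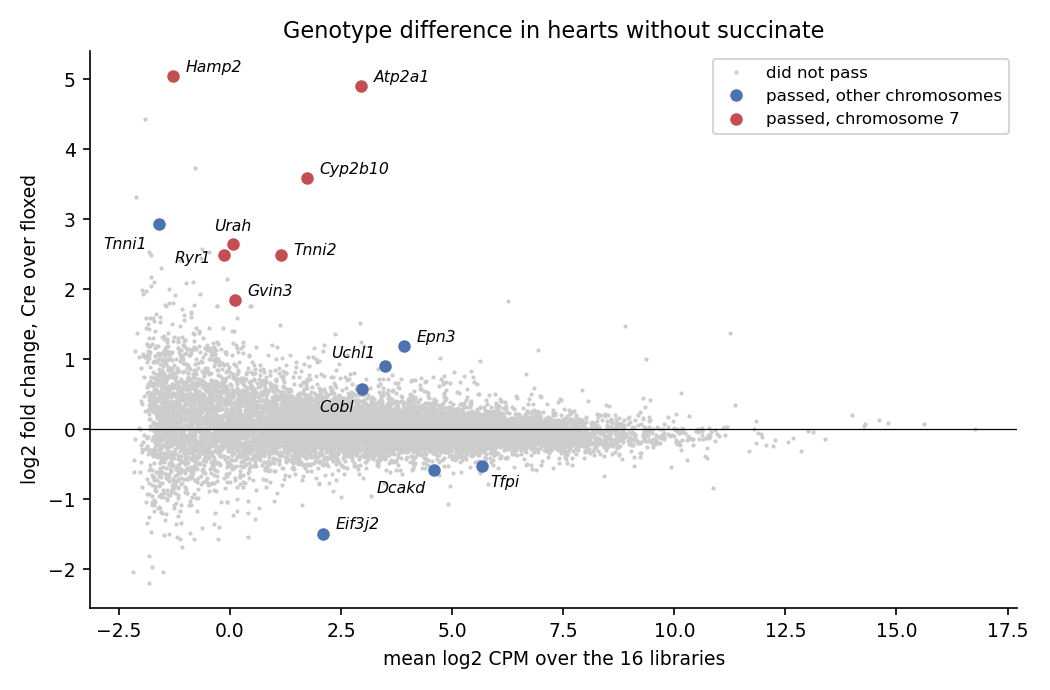
Log2 fold change of Cre over floxed hearts (vertical axis) against mean log2 CPM over the 16 libraries for the tested genes. Of the 16 that passed, 14 are drawn and labelled, 7 on chromosome 7 in red and 7 on other chromosomes in blue; genes that did not pass are grey.

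Among genes just outside the threshold, a pair of metabolic genes had lower values in Cre hearts. Khk, which phosphorylates fructose, was at 14.4, 15, 13.5 and 13.9 CPM in floxed and 9.43, 9.79, 10.7 and 11.1 CPM in Cre hearts, without overlap (log2 -0.47 ± 0.09, adjusted p = 0.0712). Me3, a mitochondrial malic enzyme, was at 83.8 ± 5.48 and 63.4 ± 7.41 CPM (log2 -0.40 ± 0.09, adjusted p = 0.133). Neither passed, and a p that misses the threshold does not show that the groups were alike.

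Higher values that missed the threshold came from several functions. Mthfd2, a mitochondrial folate enzyme of the integrated stress response, was at 4.52, 4.42, 3.96 and 3.88 CPM in floxed and 8.54, 12.2, 5.66 and 8.52 CPM in Cre hearts (log2 1.06 ± 0.22, adjusted p = 0.102). Cd44, a hyaluronan receptor, was at 9.61 ± 0.580 and 15.8 ± 4.21 CPM (log2 0.72 ± 0.15, adjusted p = 0.102), and Mpeg1, a macrophage perforin, at 20.7 ± 0.412 and 34.5 ± 10.3 CPM (log2 0.74 ± 0.17, adjusted p = 0.144). In all 3 the floxed hearts lay close together and the Cre hearts spread widely above them. Tmem43, an inner nuclear membrane gene linked to arrhythmic cardiomyopathy, was at 34.0 ± 1.57 and 43.7 ± 1.78 CPM (log2 0.36 ± 0.08, adjusted p = 0.109). Ndnf, a secreted neurotrophic factor, was at 4.88 ± 1.56 and 11.6 ± 4.67 CPM (log2 1.25 ± 0.30, adjusted p = 0.181), and Klhdc7a at 3.96 ± 1.71 and 9.06 ± 1.57 CPM (log2 1.19 ± 0.30, adjusted p = 0.194). On the lower side, Fhl2, a LIM-domain protein of the sarcomere, was at 1264 ± 181 and 871 ± 73.2 CPM (log2 -0.54 ± 0.11, adjusted p = 0.102) and did not overlap between groups. Fbxl22, a sarcomeric F-box protein, was at 89.4 ± 17.6 and 52.2 ± 13 CPM and did overlap (log2 -0.78 ± 0.17, adjusted p = 0.102).

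No list of energy, lipid, amino acid or NAD metabolism had a gene that passed, and the medians lay on both sides of 0. Over all tested genes 50.5% were positive. Of 20 TCA cycle genes 0 passed and 1 was positive, with a median of -0.13. Idh2, the mitochondrial NADP-linked isocitrate dehydrogenase, was at 1979 ± 32.4 CPM in floxed and 1497 ± 213 CPM in Cre hearts without overlap (log2 -0.40 ± 0.11, adjusted p = 0.237). Of 37 nuclear-encoded respiratory chain genes 0 passed and 1 was positive (median -0.15), and of 19 genes of branched-chain amino acid breakdown 0 passed and 1 was positive (median -0.14). Bckdk, the kinase that restrains that pathway, was at 89.2 ± 4.17 and 71.9 ± 7.21 CPM (log2 -0.31 ± 0.08, adjusted p = 0.181). Fatty acid oxidation, with 6 of 25 positive, had a median of -0.12. The 13 targets of PPAR-alpha, the receptor that induces fatty acid use, had a median of 0.46 with 11 positive, 0 passing in either list. In the hearts given succinate, 3 of the 13 were positive (median -0.29) and 0 of the 25 (median -0.25). Lipid synthesis and storage had 12 of 22 positive and a median of 0.01. NAD synthesis and transport had a median of -0.05 over 16 genes and NAD-consuming enzymes -0.03 over 19, with 0 passing. Of 18 tested genes of succinate receptor signalling, which include G proteins and kinases downstream of Sucnr1, 0 passed and the median was -0.06.

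No gene of the contractile and calcium machinery of the working heart passed. Of 19 cardiac sarcomere genes 0 passed, 7 were positive and the median was -0.02; of 17 cardiac calcium cycling genes 0 passed and the median was -0.06. Ventricular cardiomyocyte markers, all of them also on the cardiac sarcomere or calcium cycling list, had a median of -0.06 over 9 genes. Of 16 cardiac stress and fetal genes 2 rose, Uchl1 and Tnni1, 0 fell and 11 were positive (median 0.31). Over all tested genes 0.089% rose and 50.5% were positive. Tnni1 met the count filter through its values in Cre hearts, which favours a positive value. Nppa, the atrial natriuretic peptide gene, was at 388, 177, 460 and 173 CPM in floxed and 1612, 356, 595 and 754 CPM in Cre hearts, groups that overlapped (log2 1.47 ± 0.43, adjusted p = 0.336).

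Most members of the matrix, interferon, MHC and cell cycle lists had positive values, with 0 passing. Over all tested genes 50.5% were positive. The mean log2 CPM of the tested members overlapped between the genotypes in each of these lists. For the matrix list it was 4.625 to 5.161 in floxed and 4.776 to 5.785 in Cre hearts. Of 33 genes of extracellular matrix and fibrosis 31 were positive, with a median of 0.24 and 0 passing. Cilp, a matrix protein of activated fibroblasts, was at 17.8, 12.6, 21.6 and 18.4 CPM in floxed and 47.8, 59.1, 16.6 and 19.6 CPM in Cre hearts. Replicates 1 and 2 of the Cre hearts were high and the other two were within the floxed range (log2 1.02 ± 0.38, adjusted p = 0.464). Fibroblast markers stood beside this list at a median of 0.31, with 9 of 9 positive and 0 passing, and their part in it was not tested. Col1a1 and Col1a2 are on both lists. Of 23 interferon response genes 22 were positive (median 0.32), of 12 MHC class I genes 12 (median 0.20) and of 8 MHC class II genes 8 (median 0.33), with 0 passing in each; macrophage markers had a median of 0.13, with 8 of 11 positive. T and NK cell markers, at most 59 counts in a heart of either group, had 6 of 6 positive (median 0.35) and 0 passing. Other immune lists were mixed: chemokines and cytokines had 11 of 20 positive (median 0.06), neutrophil markers 1 of 4 (median -0.24) and B and plasma cell markers 2 of 4 (median -0.05). Ccr2, a receptor of recruited monocytes, was at 2.74, 6.23, 4.13 and 2.18 CPM in floxed and 15.9, 6.21, 10.7 and 2.50 CPM in Cre hearts and overlapped widely. Cell cycle genes had a median of 0.47, with 16 of 19 positive and 0 passing. Immediate early genes had a median of -0.38, with 3 of 23 positive and 0 passing. Cytosolic ribosomal protein genes had 0 of 30 positive, a median of -0.20 and 0 passing. In the hearts given succinate, 2 of 8 MHC class II genes were positive (median -0.39) and 11 of 23 immediate early genes (median -0.01). Positive values there were 32 of 33 for matrix, 21 of 23 for interferon and 11 of 12 for MHC class I. They were 19 of 19 for cell cycle and 2 of 30 for ribosomal proteins.

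**Figure D3:**
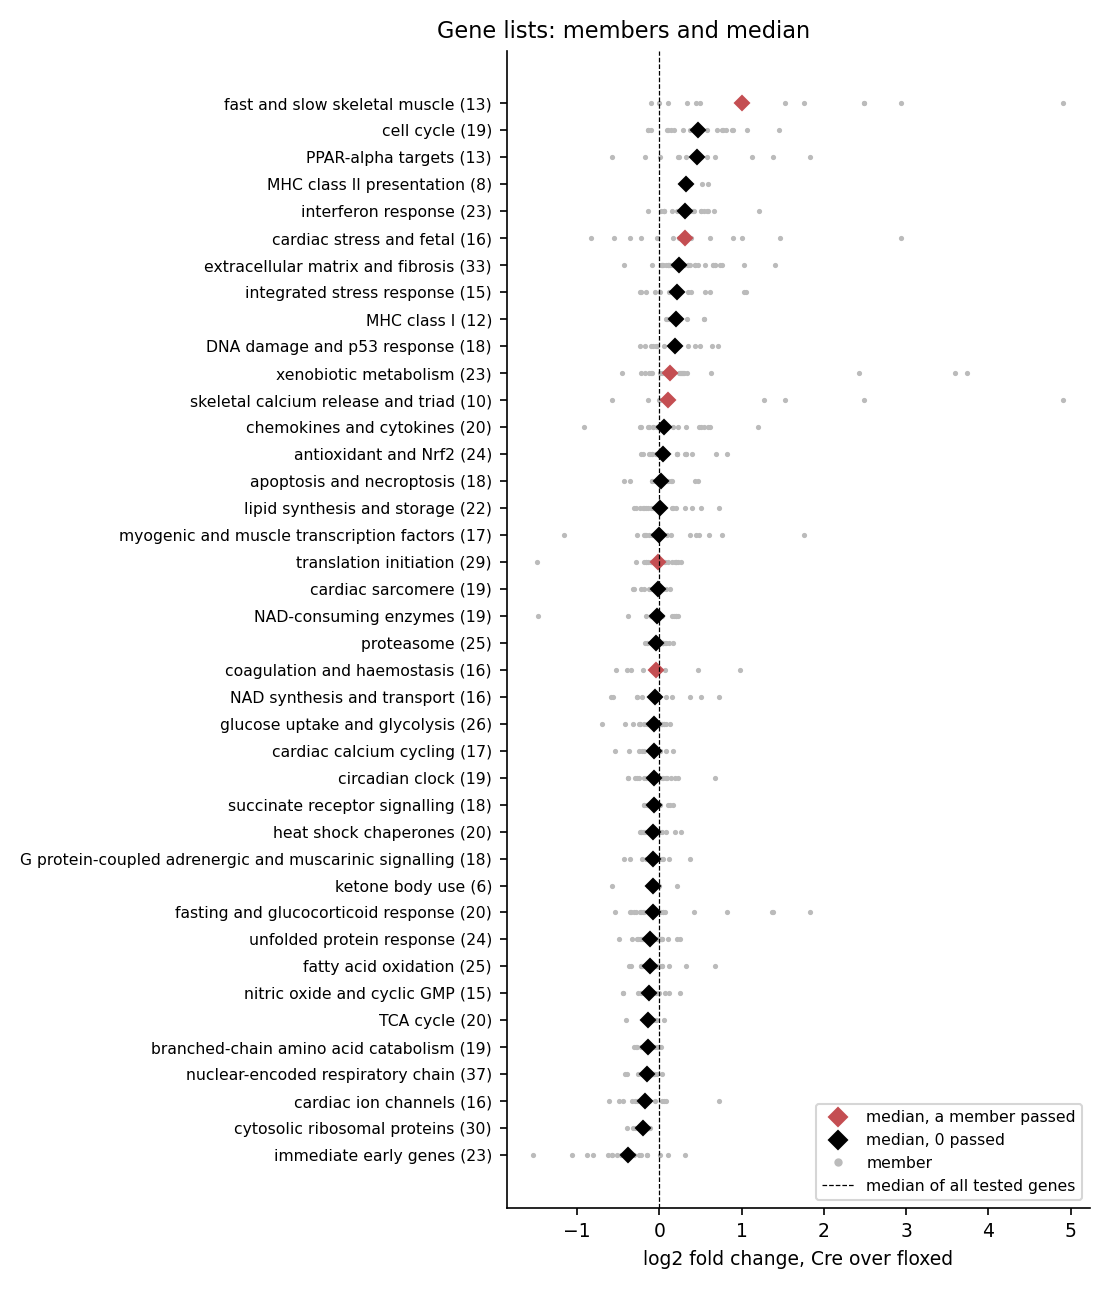
Log2 fold change of Cre over floxed hearts for the tested members (grey points) of 40 gene lists, with the list's median as a diamond, red where at least 1 member passed. The number of tested members follows each name, and the dashed line is the median of all tested genes, 0.00; fast and slow skeletal muscle is at the top with 1 and immediate early genes at the bottom with -0.38.

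Several cell markers and stress genes differed more between hearts of one group than between groups. Pdk4, the kinase that restrains pyruvate use, was at 420, 512, 213 and 1546 CPM in floxed and 455, 1598, 3869 and 1095 CPM in Cre hearts (log2 1.38 ± 0.60, adjusted p = 0.540). Angptl4, a lipase inhibitor induced by fatty acids, was at 8.70, 9.36, 5.97 and 49.2 CPM in floxed and 12.5, 62.4, 166 and 19.7 CPM in Cre hearts (log2 1.83 ± 0.78, adjusted p = 0.538). Both were highest in floxed replicate 4 and in Cre replicate 3 and lowest, among Cre hearts, in replicate 1. Nmrk2, the muscle nicotinamide riboside kinase, was at 46.6, 48.7, 35.5 and 10.6 CPM in floxed and 63.6, 8.38, 6.45 and 17.2 CPM in Cre hearts, lowest in the same 2 hearts. Haemoglobin transcripts, a sign of blood in the sample, ranged from 268 to 3799 counts for Hba-a1, with floxed replicate 4 and Cre replicates 2 and 4 the high ones. The adipocyte genes Adipoq and Cfd had 21 and 34 counts in Cre replicate 3 and at most 5 and 8 elsewhere.

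The mean level of atrial markers did not overlap between the genotypes, although none of them passed. Of 5 tested, 0 passed, 4 were positive and the median was 0.39. The 5 were Myl4, Nppa, Stard10, Dkk3 and Myl1. Myl1 is also on the list of fast and slow skeletal muscle, and Myl4 and Nppa are on that of cardiac stress and fetal genes. Their mean is therefore not a measure of atrial tissue alone. The mean log2 CPM of the tested atrial markers was 3.59 to 3.96 in floxed and 4.11 to 4.46 in Cre hearts. Besides Nppa, Dkk3, another of them, had 71 to 132 counts in floxed and 103 to 323 in Cre hearts, whereas Stard10 had 616 to 1006 and 536 to 749 counts (log2 -0.32 ± 0.16). Other defining atrial genes were near 0 in all 8 hearts: Myl7 had at most 11 counts, Sln at most 2 and Bmp10 at most 6. With the score as a covariate 2 genes passed, Atp2a1 and Cyp2b10. Nppa is itself a stress gene of the ventricle, and the part of atrial tissue in the 16 differences was not tested.

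The same genotype contrast in the hearts given succinate used 8 other libraries, although the fit shared its estimate of the spread. There 101 genes passed (0.691%): 80 were higher (0.548%) and 21 lower (0.144%) with Cre. Of the 16 genes above, 15 had the same sign and 12 passed again in the same direction, 11 higher and 1 lower. The 12 were 75% of the genes called without succinate and 11.9% of those called with it. Atp2a1 was 36.2-fold higher there, from 0.440, 0.509, 0.489 and 0.570 CPM in floxed to 20.6, 17.5, 17.7 and 17.2 CPM in Cre hearts. Cyp2b10 was 8.61-fold higher, Uchl1 1.89-fold and Epn3 2.16-fold, and Tfpi changed by -0.55 ± 0.09 (log2). Hamp2 had 3 counts in the 4 floxed and 117 in the 4 Cre hearts, a ratio of 36.2 with a counting interval of 12.1 to 178. In 14 of the 16 genes the genotypes did not overlap in either pair, in the same direction. Over all tested genes, 4.85% did not overlap in the first pair and 7.5% in the second (3.96% higher, 3.54% lower). The 16 were chosen on the first pair, so only the second adds to this count.

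Exceptions were Eif3j2, Gvin3, Dcakd and Urah, which did not pass with succinate. Eif3j2 was at 5.78, 5.40, 2.74 and 6.11 CPM in floxed and 5.48, 3.98, 5.94 and 6.98 CPM in Cre hearts given succinate, so the 4 untreated Cre hearts, at 1.10 to 2.02 CPM, were the low group of the 16. Gvin3 was at 0.71 to 0.934 CPM in Cre hearts given succinate, overlapping the floxed hearts there, and its log2 difference was 0.05 ± 0.35. Dcakd stood at -0.23 ± 0.11 and Urah at 1.09 ± 0.38 (log2). Ryr1 differed more with succinate (log2 4.87 ± 0.49) than without. The test of the difference between the pairs called 0 of 14607 genes (0%; 709 had an unadjusted p under 0.05 and the smallest adjusted p was 0.930, edgeR), so none of these genes is shown to differ between them by edgeR. Of the 16, 6 had an unadjusted interaction p under 0.05 (edgeR), among them Eif3j2 (log2 1.65 ± 0.35), Gvin3 (-1.80 ± 0.49), Ryr1 (2.37 ± 0.69), Urah (-1.56 ± 0.57) and Dcakd (0.36 ± 0.16). The 16 were chosen by their values without succinate, which also enter this contrast, so the 6 are no evidence of a difference between the pairs. Limma voom with sample weights called 0 of the 16 and DESeq2 called 1, Eif3j2.

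**Figure D4:**
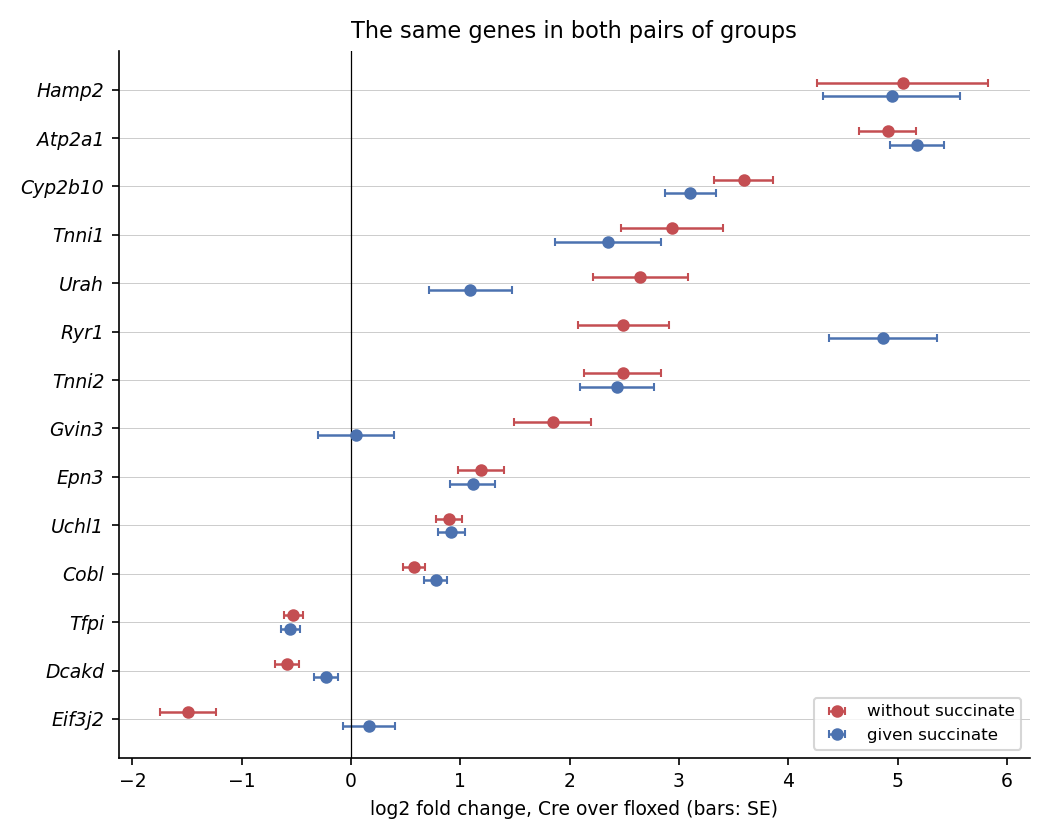
Log2 fold change of Cre over floxed hearts for 14 of the 16 genes, without succinate (red) and with it (blue), with bars of 1 SE. The points lie on the same side of 0 for 13 of the 14; Eif3j2 is the exception, and Gvin3 is near 0 with succinate.

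The genes that passed were unevenly placed in the genome, a pattern seen after their values were known and given as a description. Of the 16, 9 lie on chromosome 7 (Atp2a1, Cyp2b10, Tnni2, Hamp2, Urah, Ryr1 and Gvin3 among them), all higher in Cre hearts. That is 0.813% of its 1107 tested genes, against 0.0519% of the tested genes elsewhere. Hamp2 and Ryr1 met the count filter through their values in Cre hearts, which favours higher values. Cobl, Epn3 and Dcakd lie on chromosome 11, Tnni1 on 1, Tfpi on 2, Uchl1 on 5 and Eif3j2 on 18. On chromosome 7, 15% of tested genes had an unadjusted p under 0.05, where the 18 other autosomes and X ranged from 6.01% to 10.7%. Y, with 5 tested genes, and the mitochondrial genome, with 13, were left out of this and the next ranges. Its genes leaned the other way from those that passed: 38.7% of them had a positive value, against 48.3% to 56.7% on the others, with a median of -0.05. Taken across genes (these are not replicates), the differences in the 2 pairs correlated at r = 0.70 on chromosome 7 and at r = 0.0939 to 0.484 on the others; without the genes that passed it was 0.589.

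Along the chromosome these genes were spread out. Counting tested genes from the start, Cyp2b10, Ryr1 and Hamp2 were the 212th, 269th and 329th of 1107, Gvin3 the 760th, Atp2a1 the 880th and Urah and Tnni2 the 1034th and 1076th. Cyp2e1, next to Urah at place 1033, had 1, 2, 1 and 3 counts in floxed and 6, 27, 6 and 4 in Cre hearts (log2 2.43 ± 0.75, adjusted p = 0.336). Tnnt3, at place 1079 and 3 places past Tnni2, was the other troponin gene of that stretch. Usp17la, at place 741, had 1 count in the floxed and 35 in the Cre hearts, a ratio of 32.4 with a counting interval of 5.45 to 1317 (adjusted p = 0.0775).

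**Figure D5:**
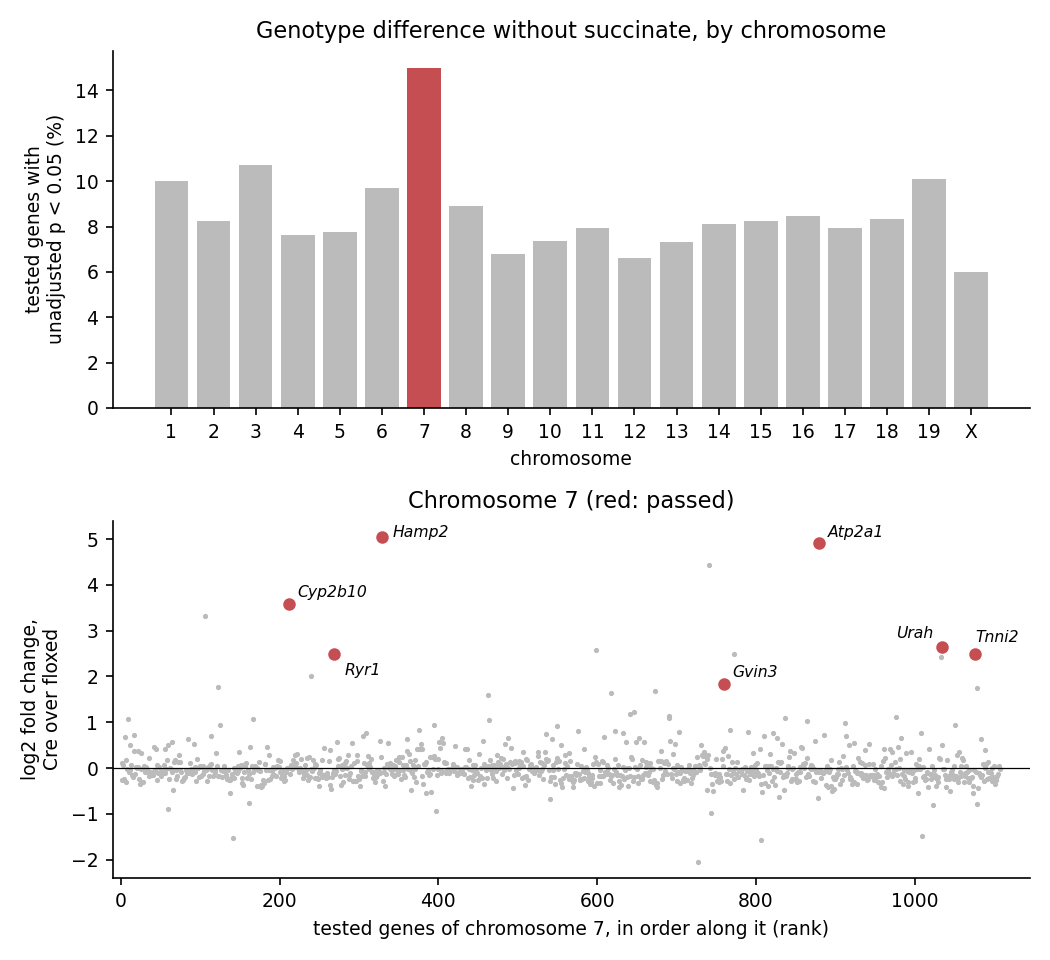
Top, percent of tested genes on each chromosome with an unadjusted p under 0.05 for genotype without succinate; chromosome 7 (red) is at 15% and the other autosomes and X are at 6.01% to 10.7% (Y, with 5 tested genes, is not drawn). Bottom, log2 fold change of the tested genes of chromosome 7 by rank along it, with 7 of the 9 that passed in red.

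How firmly the 16 hold varied from gene to gene. Atp2a1 and Cyp2b10 passed under all 23 alternative settings tried for them, Uchl1 under 22 and Tnni2 under 21, whereas Gvin3 passed under 8 of 21 and Dcakd under 8 of 23. The count of 16 became 3 with only the 8 libraries compared in the fit (Atp2a1, Cyp2b10 and Uchl1), 4 without replicate 3 of the floxed hearts, 7 without replicate 1 of the floxed hearts, and 81 without replicate 4 of the floxed and replicate 1 of the Cre hearts together, a choice made after their spread was seen; the 16 were among the 81.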

How the data were processed

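Bulk RNA-seq of mouse hearts was analysed from the deposited tables. The tools were HISAT2, fastp, HTSeq, DESeq2 and R 3.2.0 on the GRCm39 build, per the submitters' processing notes; settings and strandedness are not given in the sources used here. The counts are whole numbers per gene as deposited by the authors, with no normalization, and the FPKM values are those deposited by the authors, used per length and as an alternative.

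All 16 libraries were fitted in 1 model of 4 groups (12 residual degrees of freedom) with edgeR 4.0.16 in R 4.3.3: filterByExpr at a minimum of 10 counts, TMM scaling, robust quasi-likelihood tests and Benjamini-Hochberg adjustment over 14607 genes at 0.05. The SE is the log2 fold change divided by the root of F. Tested genes held at least 99.95% of each library's counts. Libraries of 28493115 to 34357187 counts give a floor of 3 counts at 0.0873 to 0.105 CPM. Intervals and floors cover counting error only; the 95% counting intervals of ratios are exact. Alternatives were DESeq2 1.42.0, limma 3.58.1 with voom and sample weights, other scalings and filters, log2(FPKM + 1) and log2(FPKM + 0.1), a fold minimum, an atrial covariate, a replicate block and leaving out each heart. On simulated counts for 14434 genes the test recovered 55.1%, 61.2%, 91.7% and 98% of genes changed 1.5, 2, 3 and 6-fold, with 5 false calls among 154.

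Replicate numbers were checked for pairing: same-numbered hearts of the genotypes had correlations of their deviations of 0.269, 0.0472, 0.00792 and 0.067. Hearts of different number ran from -0.214 to 0.245, so 0.269 was the highest of all. The check does not settle whether the numbers are pairs, and they were not treated as such. Shared 50-base stretches were counted in GENCODE vM21 transcripts, on both strands. Chromosomes, gene order and promoter windows come from RefSeq on GRCm38.p6, an older build than the authors', so no coordinates were joined between them. Of 24371 genes, 23549 were given a chromosome, matched by gene identifier.

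Named genes were Sucnr1, those that passed, the next 15 by p and the 10 highest and 10 lowest fold changes without overlap (mean log2 CPM of at least 1), up to 4 of each list by p, genes called by both other tools, relatives by symbol and the 10 most variable genes (mean log2 CPM of at least 3). Cyp2e1 and the neighbours on chromosome 7, Rabep2, and the marker genes Tnnt3, Mylpf, Mybpc2, Dkk3, Hba-a1, Adipoq and Cfd were named after their values were seen. The members and lists were chosen with earlier results of these data known. Some genes, including 2 of the 16 that passed, enter the counts but are not reported here by name.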

Additional observations from a re-analysis of the deposited data

Results flagged for a closer look

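In 11 of 190 groups of 4 hearts (95 genes), 1 heart lay apart from the other 3 by more than Dixon's 95% limit for a gap divided by the range; chance flags about 1 group in 20. Among genes that passed, these were Ryr1 in floxed replicate 1 at 0.386 CPM (the others at 0.139 to 0.171) and Hamp2 in floxed replicate 2 at 0.0307 CPM, which is 1 count where the others had 0.

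Among the other genes, H1f2 was at 40.6 CPM in floxed replicate 1, Ier2 at 28.5 CPM and Mybpc2 at 24.6 CPM in floxed replicate 2, and Smpd1 at 170 CPM in Cre replicate 1. Usp17la, at 0.0346 CPM in floxed replicate 4, is again 1 count against 0, and Cyp2e1 reached 0.864 CPM in Cre replicate 2. Floxed replicate 4 was the outlying heart for Angptl4 at 49.2 CPM, Hba-a1 at 69.5 CPM and Slc2a4 at 225 CPM, the last of them the low one of its group.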

How the results depend on the processing

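The 16 genes (13 higher, 3 lower) became 90 with DESeq2 (56 and 34), 3 with only the 8 libraries compared (3 and 0), 2 with the atrial score as a covariate (2 and 0), 7 with log2(FPKM + 1) at a mean FPKM of at least 1 (6 and 1), 9 against a fold minimum of 1.2 (9 and 0) and 81 without floxed replicate 4 and Cre replicate 1 (43 and 38), the last chosen after seeing the data. Fewer genes entered the FPKM minimum and fewer samples the fit of 8 libraries; for the others the cause was not tested. Voom gave 23 genes, 6 of them lower, and the remaining scalings and filters 11 to 17. Leaving out 1 heart gave 4 to 23 genes, 4 to 18 higher and 0 to 8 lower. With the replicate number as a block, 11 genes passed, 10 higher and 1 lower. Whether the numbers pair the hearts is not known.

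Of the 16, 10 to 12 passed with succinate under every alternative run, against 12, and DESeq2 called the difference between the pairs for 1 of them, against 0. The Sucnr1 difference stayed positive, at 0.067 to 0.269 CPM with 1 heart left out. None of the 16 changed sign in 357 recomputed values, of which 259 passed; of 1863 values for 82 other named genes, 77 passed and 2 changed sign: Hba-a1 at -0.07 without Cre replicate 2 (1.82 without floxed replicate 4 and Cre replicate 1) and Dkk3 at -0.13 with the atrial covariate. At 3 counts per library, Sucnr1, Hamp2 and Tnni1 are limited by depth in floxed hearts.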
